A study of Mus musculus with 80 samples.

Results

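The enzymes that turn cholesterol into bile acids were followed through 10 genes, taken by their symbols from the 22103 rows of a liver count table: Cyp7a1, Cyp8b1, Cyp27a1, Cyp7b1, Cyp39a1, Cyp2c70, Hsd3b7, Akr1d1, Baat and Slc27a5. All 10 rows were present and all 10 passed the filter on low counts, with at least 199 counts in every library. Female Balb-C mice aged 10 to 12 weeks were gavaged once a day on 7 days with PFESA-BP2, labelled Nafion BP2, at 0.03, 0.3, 3.0 or 6.0 mg/kg-day, and controls received vehicle at 0 mg/kg-day. PFESA-BP2 is a byproduct of Nafion manufacture and belongs to the perfluorinated alkyl substances. The vehicle is DMSO in the control titles and deionized water in the design text, and was left unsettled. Each of the 5 groups held 4 individual mice, each mouse gave 1 library of whole liver, and the 20 libraries were read over 4 lanes each on an Illumina NextSeq 500. Whole liver holds several cell types, so fewer cells of a type and less RNA per cell cannot be told apart.

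Bile acids are made from cholesterol in hepatocytes by way of a classic and an alternative pathway. The classic pathway opens with Cyp7a1, the rate-limiting cholesterol hydroxylase, and its branch enzyme Cyp8b1 directs the product toward cholic acid. The alternative pathway opens with oxidation of the side chain by the mitochondrial enzyme Cyp27a1, after which Cyp7b1 hydroxylates the ring of the oxysterol. Cyp39a1 is another oxysterol hydroxylase. Hsd3b7 and Akr1d1 then modify the steroid rings, Slc27a5 activates bile acids with coenzyme A, Baat joins them to taurine or glycine, and in rodents Cyp2c70 makes muricholic acids. Bile acids limit their own synthesis: the nuclear receptor Nr1h4 (FXR) induces the corepressor Nr0b2 (SHP) in liver, and an intestinal hormone acts on liver through Fgfr4 and its partner Klb.

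Of the 10 genes, 6 code for cytochromes P450, whose heme is held by a cysteine in a short loop. The coding sequence of that loop is shown because it is what the hydroxylases of both pathways share. A search of the longest coding transcript for phenylalanine or tryptophan, any 6 residues, cysteine, any residue and glycine gave 1 match in each of the 6 genes and none in Hsd3b7, Akr1d1, Slc27a5 or Baat. The 30 bases are given 5′ to 3′ with the cysteine codon in capitals, from GENCODE M21 transcripts of GRCm38.
Cyp7a1: tttggatcaggagctacaataTGTcctgga
Cyp7b1: tttggactcggaacaagcaaaTGTccaggg
Cyp39a1: tttggaggcgggaagttccagTGTcctgga
Cyp8b1: tggggctcgggtgtttccaagTGCcccggc
Cyp27a1: ttcggctatggggttcggtctTGCctgggt
Cyp2c70: ttctcagcaggaagaagagctTGTattgga
The loops of Cyp7a1 of the classic and Cyp7b1 of the alternative pathway had 20 of 30 bases in common, the most of any pair. The fewest, 8 of 30, were shared by Cyp8b1 and Cyp2c70. Over their whole aligned coding sequences Cyp7a1 and Cyp7b1 were 56.8% identical, which did not set them apart from the other pairs aligned. Cyp7a1 was 57.5% identical to Cyp8b1 and 56.6% to Cyp39a1, and Cyp7b1 was 56.9% identical to Cyp39a1. In transcripts cut into 50-base stretches, 9 of the 10 genes shared 0% with any other gene. The exception was Hsd3b7, with 93.9% of its stretches also in the annotated gene Gm49388, which overlaps it on the same strand and was not analysed here. On the opposite strand 9430064I24Rik overlaps 62.4% of the exon bases of Hsd3b7, at 118 to 270 counts per library against 3890 to 9304 for Hsd3b7. Neither strand use in counting nor how reads shared with Gm49388 were assigned is known here, so the counts of Hsd3b7 are uncertain in both respects.

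RefSeq promoter windows, 250 bases before to 50 after the transcription start (GRCm38.p6), matched 5 of the 10 genes: Cyp8b1, Cyp27a1, Hsd3b7, Akr1d1 and Cyp2c70. They were searched on both strands for AAGGNCA, a core motif of several liver nuclear receptors, and TTATGNAA, the D-box of the clock output factor Dbp and its relatives. Of 32851 promoter windows, 20.3% held the first motif and 3.38% the second. Capitals mark the matches, and no window shown held both motifs. Akr1d1 is shown because it was the member that rose with dose, Cyp2c70 because it fell most after Cyp7a1, and Cyp8b1 because it did not pass any of the dose tests.
Akr1d1, chr6:37529923-37530222, plus strand: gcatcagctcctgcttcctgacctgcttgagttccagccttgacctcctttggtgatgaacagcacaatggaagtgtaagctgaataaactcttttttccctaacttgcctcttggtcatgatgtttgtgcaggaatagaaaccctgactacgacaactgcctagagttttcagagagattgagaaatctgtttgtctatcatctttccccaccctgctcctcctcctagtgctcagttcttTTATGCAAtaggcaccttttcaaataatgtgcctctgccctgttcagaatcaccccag
Cyp2c70, chr19:40187237-40187536, minus strand: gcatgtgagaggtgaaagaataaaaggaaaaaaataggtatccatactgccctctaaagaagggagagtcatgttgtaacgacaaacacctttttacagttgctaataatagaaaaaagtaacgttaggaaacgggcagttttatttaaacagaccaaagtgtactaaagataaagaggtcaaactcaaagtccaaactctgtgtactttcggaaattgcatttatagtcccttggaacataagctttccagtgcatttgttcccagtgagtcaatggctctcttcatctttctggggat
Cyp8b1, chr9:121916256-121916555, minus strand: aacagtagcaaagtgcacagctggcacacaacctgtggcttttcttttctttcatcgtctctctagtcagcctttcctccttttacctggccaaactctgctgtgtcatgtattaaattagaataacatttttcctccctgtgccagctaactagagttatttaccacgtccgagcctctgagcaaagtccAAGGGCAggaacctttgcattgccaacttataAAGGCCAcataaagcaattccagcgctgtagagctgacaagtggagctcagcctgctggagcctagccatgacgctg
Akr1d1 held 1 match to the D-box, Cyp8b1 held 2 matches to the nuclear receptor motif, and neither set of letters was in the Cyp2c70 window. Of the windows not shown, Cyp27a1 held 1 D-box and Hsd3b7 held 1 nuclear receptor motif. A match is a description of letters and not a bound site.

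The libraries held 13086755 to 21466978 counts. In each group 1 library stood apart from the other 3 on the first component of the residual log2 values, which carried 42.7% of the residual variation: library 3 among the controls, then 11, 15, 19 and 23 in order of rising dose. In every group it is the third by library number, and what that place stands for is not in the sources used here. Bile acid genes were among those that differed there. Cyp8b1, Cyp27a1 and Akr1d1 were highest of their group in that library in 5 of 5 groups, a pattern held by 12.0% of all tested genes. Cyp39a1 and Baat were lowest in it in 5 of 5 groups, as were 13.6% of tested genes, and Hsd3b7 was lowest in 4 of 5. The libraries were picked out on all tested genes, these included, so this is a description with no test. Hepatocyte markers were abundant throughout, with Alb alone at 126657 ± 19462 CPM (counts scaled to library size with TMM factors; mean ± SD, n = 4) in the controls.

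**Figure D1:**
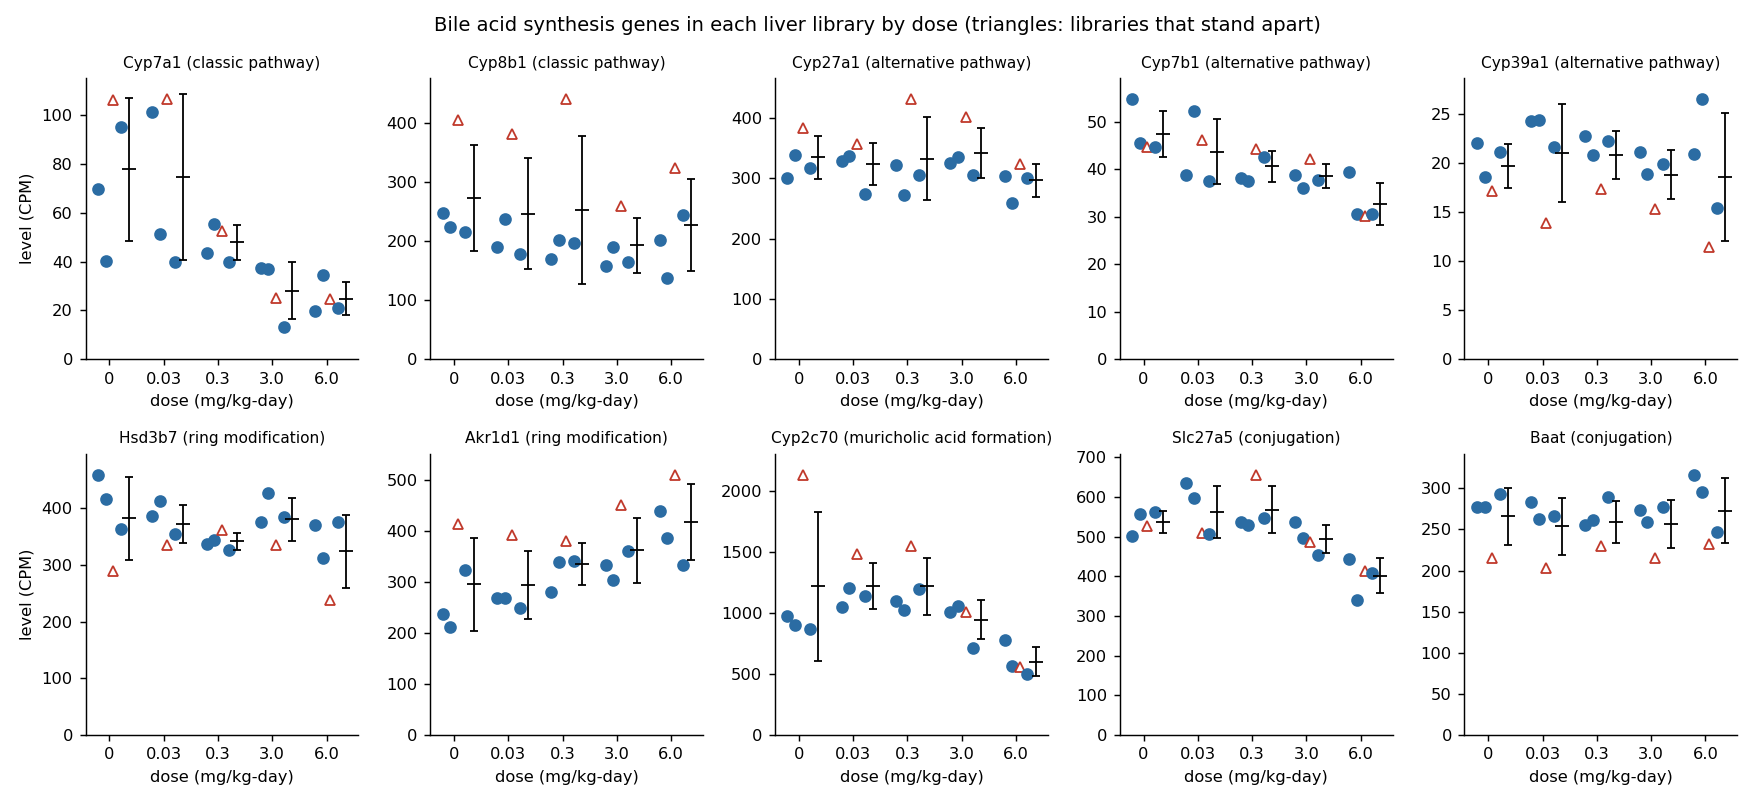
Levels of the 10 genes in each library. The x axis is the dose in mg/kg-day, the y axis the level in CPM from 0, circles are libraries, open triangles the 5 libraries that stand apart, and the black bar is the mean ± SD of the 4 libraries of a group. Cyp7a1 lies between 40.3 and 106 CPM in the controls and between 19.7 and 34.4 CPM at 6.0 mg/kg-day, while the triangles of Cyp8b1 sit at the top of every group.

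Levels can be set beside each other between genes only per length, here as CPM per kilobase of annotated exons. In the controls Cyp2c70 was the most abundant member at 616 ± 308 CPM per kilobase (SD, n = 4), followed by Slc27a5 at 221 ± 11.5. Cyp27a1 (154), Cyp8b1 (139.98), Hsd3b7 (138), Baat (137) and Akr1d1 (102) formed a middle set whose neighbouring ranges over libraries overlapped. The scarce members were Cyp7b1 at 21.9 ± 2.27, Cyp7a1 at 18.7 ± 7.04 and Cyp39a1 at 6.45 ± 0.733 CPM per kilobase. The ranges of Cyp7b1 and Cyp7a1 overlapped, and those of Cyp7a1 and Cyp39a1 did not. At 6.0 mg/kg-day Cyp7a1 was at 5.95 ± 1.60 CPM per kilobase and Cyp39a1 at 6.07 ± 2.14, so that their ranges overlapped. Cyp2c70 remained the most abundant member there at 303 ± 61.0 CPM per kilobase.

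At 6.0 mg/kg-day, 4 of the 10 genes had fallen and 0 had risen by edgeR's quasi-likelihood test at a Benjamini-Hochberg adjusted p under 0.05. The genes that fell were Cyp7a1, Cyp2c70, Cyp7b1 and Slc27a5. Among all 15197 tested genes 11.2% were called lower and 11.2% higher at that dose. In 4 of 10 members, the same 4, every treated library lay below every control library, against 18.5% of tested genes whose groups did not overlap in either direction. The median log2 fold change was -0.25 over the 10 members and -0.018 over all tested genes. The members, and the gene lists that follow, were chosen with earlier results of these data known. Their shares beside those of all genes are therefore descriptions with no test. The controls are shared by every dose comparison that follows.

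At 3.0 mg/kg-day 1 member, Cyp7a1, had fallen and 0 had risen, with 1.43% of tested genes called lower and 3.18% higher. At 0.3 mg/kg-day 0 members passed in edgeR, and 0 had an unadjusted p under 0.05. The background there was 0.138% of genes higher and 0.151% lower. At 0.03 mg/kg-day 0 members passed and 0 had an unadjusted p under 0.05, and 0% of all genes passed in either direction. DESeq2 and limma-voom also called 0 members at both low doses. Between 6.0 and 3.0 mg/kg-day 0 members passed in edgeR, DESeq2 or limma-voom, 2 had an unadjusted p under 0.05, and 1.03% of genes were called higher and 1.06% lower.

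**Figure D2:**
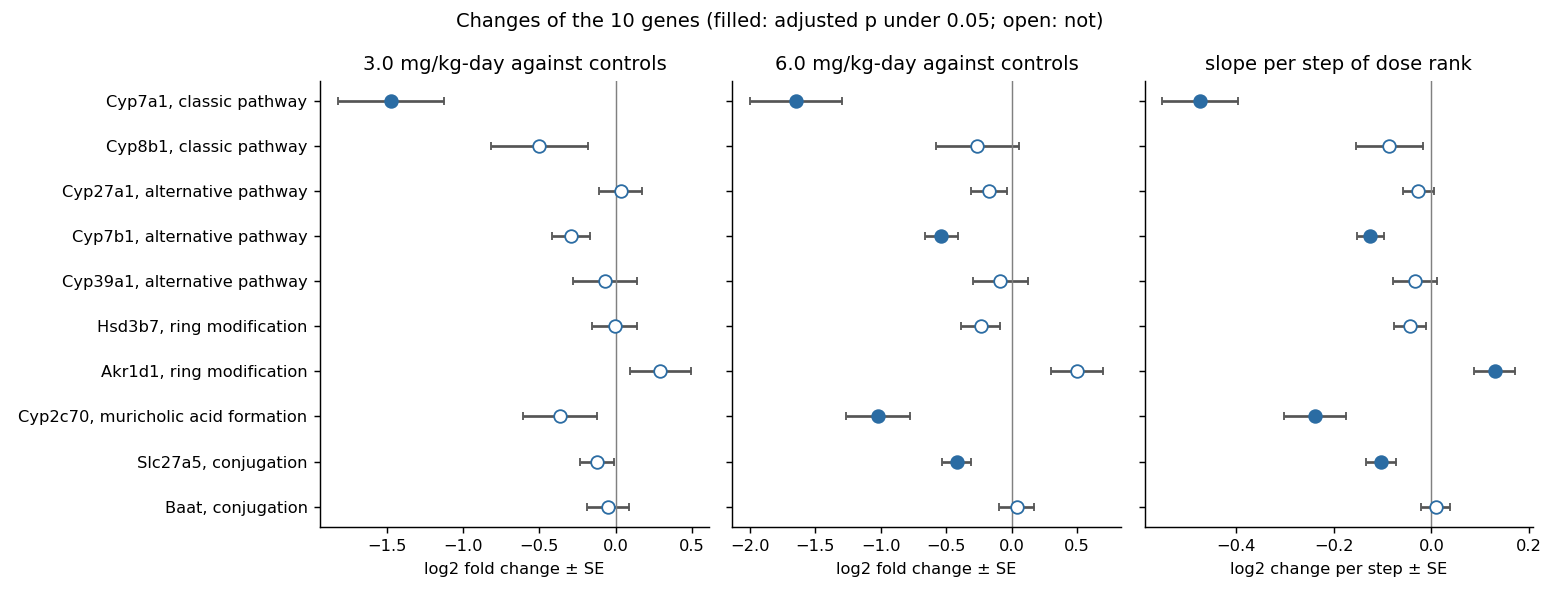
Log2 fold changes of the 10 genes at 3.0 and at 6.0 mg/kg-day against controls, and the log2 slope per step of dose rank, each with its SE. The x axes differ in range, rows are genes with their role, and filled points passed an adjusted p of 0.05. Cyp7a1 is filled in all 3 panels, at -1.47, -1.65 and -0.47, and Akr1d1 is the only gene filled to the right of 0, in the slope panel at 0.13.

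Cyp7a1 (ENSMUSG00000028240.2, chromosome 4, 6265612 to 6275633, minus strand, GRCm38) lost more than any other member. The control mice had 69.8, 40.3, 106 and 95.1 CPM, and the mice at 0.03 mg/kg-day had 101.5, 51.3, 107 and 39.96 CPM. Both groups were wide, with highest values more than double the lowest, and they overlapped fully. At 0.3 mg/kg-day the values were 43.7, 55.4, 52.4 and 40.1 CPM, all within the lower part of the control range or just under it. At 3.0 mg/kg-day they were 37.5, 37.0, 24.9 and 13.0 CPM, and at 6.0 mg/kg-day 19.7, 34.4, 24.5 and 20.8 CPM. Every mouse of both high doses lay below every control mouse, and the 2 high doses overlapped each other. At 3.0 mg/kg-day 10.5% of tested genes had groups that did not overlap.

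The log2 fold change of Cyp7a1 was -1.65 ± 0.351 (SE) at 6.0 mg/kg-day, a 3.13-fold lower level with an adjusted p of 0.00186 in edgeR. At 3.0 mg/kg-day it was -1.47 ± 0.349 with an adjusted p of 0.0143, and at 0.3 mg/kg-day -0.70 ± 0.342, which did not pass (0.594). The 6.0 and 3.0 mg/kg-day groups differed by -0.18 ± 0.345 (adjusted p = 0.861). The call at 3.0 mg/kg-day ended without the 5 libraries that stand apart (-1.21, adjusted p = 0.0745), without control library 3 alone (-1.28, 0.0528), without library 20 (-1.23, 0.0610) and in a fit of the 2 groups alone (-1.45, 0.0591). At 6.0 mg/kg-day it passed without the libraries apart (-1.43, adjusted p = 0.00807), in a fit of the 2 groups alone, and without each control or 6.0 mg/kg-day library in turn, with adjusted p-values of at most 0.00889.

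Clock genes are given beside Cyp7a1, whose expression is known to follow the time of day, since no source used here gives the hour at which livers were taken. Nr1d1, a core clock repressor that stands on the list of regulators and is named here after its values were seen, had 55.3, 58.3, 47.2 and 60.5 CPM in the controls. It had 43.4, 33.5, 32.0 and 33.9 CPM at 3.0 mg/kg-day and 24.2, 19.7, 37.3 and 33.7 CPM at 6.0 mg/kg-day, all below every control. It fell at 3.0 mg/kg-day (-0.63 ± 0.163, adjusted p = 0.0257 in edgeR) and at 6.0 mg/kg-day (-0.95 ± 0.165, 0.000265). Nfil3, a clock output repressor from that list and named in the same way, fell at 6.0 mg/kg-day (-0.72 ± 0.180, adjusted p = 0.00675). Of 10 further clock genes tested 0 passed in edgeR at 6.0 mg/kg-day, where 2 had an unadjusted p under 0.05. Of all tested genes 11.2% were called in each direction there. At 3.0 mg/kg-day Npas2 was higher (1.96 ± 0.526, adjusted p = 0.0334 in edgeR) and Per1 lower (-1.54 ± 0.434, 0.0460). Npas2 was near the floor, at 0.228 to 0.675 CPM in the controls and 0.324 to 2.63 CPM at 3.0 mg/kg-day, and these groups overlapped. Per1 had 3.01 to 7.59 CPM in the controls and 1.01 to 2.48 CPM at 3.0 mg/kg-day. At that dose 3.18% of all tested genes were called higher and 1.43% lower. Npas2 and Per1 were named after their values were seen. Without the libraries apart 2 of the clock genes were called lower at 6.0 mg/kg-day. Dbp, a clock output factor that acts on Cyp7a1, had 77.0, 100.9, 50.1 and 132 CPM in the controls and 45.2, 42.4, 57.8 and 139 CPM at 6.0 mg/kg-day. Its groups overlapped, and its log2 fold change of -0.34 ± 0.405 did not pass (adjusted p = 0.595). Per3 had 10.1, 19.7, 29.5 and 44.7 CPM in the controls, a wider range between mice of 1 group, as a ratio, than that of Cyp7a1. The part of clock genes in the result was not tested.

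Cyp8b1 (ENSMUSG00000050445.4, chromosome 9, 121914356 to 121916305, minus strand), the other enzyme of the classic pathway and a gene of 1 exon, did not pass at any dose. The controls had 247, 223, 406 and 215 CPM, and the mice at 6.0 mg/kg-day had 202, 138, 325 and 245 CPM. The high value of each set belongs to the library that stands apart, and the groups overlapped. The log2 fold change was -0.26 ± 0.317 (adjusted p = 0.598). At 3.0 mg/kg-day, with 157, 190.1, 259 and 165 CPM, it was -0.50 ± 0.318 (0.550). Fitting a term for the outlying libraries gave a call, at -0.47 with an adjusted p of 0.0397, and leaving them out did not, at -0.41 (0.176).

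Cyp7b1 (ENSMUSG00000039519.6, chromosome 3, 18071950 to 18243338, minus strand), a ring hydroxylase of the alternative pathway, fell in smaller and more even steps. The controls had 54.8, 45.5, 44.6 and 44.8 CPM, and the mice at 0.03 mg/kg-day 38.9, 52.3, 46.3 and 37.5 CPM. At 0.3 mg/kg-day the values were 38.1, 37.6, 44.3 and 42.5 CPM, and at 3.0 mg/kg-day 38.7, 36.1, 42.1 and 37.8 CPM. At 6.0 mg/kg-day they were 39.5, 30.6, 30.1 and 30.6 CPM. From 0.3 mg/kg-day up, every treated mouse lay below every control mouse, at 0.3 mg/kg-day by a gap smaller than the spread of either group. Groups that did not overlap were found at 0.3 mg/kg-day for 1 of 10 members and 6.69% of tested genes, and at 3.0 mg/kg-day for 2 of 10 members and 10.5% of tested genes. The log2 fold change was -0.54 ± 0.125 at 6.0 mg/kg-day, 1.45-fold lower, with an adjusted p of 0.00365 in edgeR. It was -0.30 ± 0.124 at 3.0 mg/kg-day (adjusted p = 0.249) and -0.22 ± 0.124 at 0.3 mg/kg-day (0.690), neither of which passed.

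The other enzymes of the alternative pathway did not pass. Cyp27a1 (chromosome 1, 74713574 to 74737892, plus strand) had 335 ± 35.8 CPM in the controls and 297 ± 27.0 CPM at 6.0 mg/kg-day (SD, n = 4), a log2 fold change of -0.17 ± 0.138 (adjusted p = 0.400). Its group means stayed between 297 and 342 CPM over the 5 groups. Cyp39a1 (chromosome 17, 43667425 to 43751431, plus strand) had 19.7 ± 2.24 CPM in the controls and 18.5 ± 6.54 CPM at 6.0 mg/kg-day (-0.087 ± 0.211, adjusted p = 0.805). Its lowest value in each group was that of the library apart, 17.1 CPM in the controls and 11.5 CPM at 6.0 mg/kg-day. Without those libraries its change was 0.048, on the other side of 0.

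The balance of the pathways was set out as a log2 ratio within each library, of CPM plus 0.5. These CPM are not per length, so the ratios can be compared between groups but do not show which gene was more abundant. The ratio of Cyp7a1 to Cyp7b1 was 0.885 to 2.37 in the controls, 0.354 to 1.02 at 3.0 mg/kg-day and 0.505 to 1.12 at 6.0 mg/kg-day. These ratios overlapped between groups. The mean log2 ratio was 1.19 lower than in the controls at 3.0 mg/kg-day and 1.04 lower at 6.0 mg/kg-day, with 2-sided exact permutation p-values of 0.0857 and 0.0571. After adjustment over the 8 ratio tests both were 0.171, and the smallest p that 4 mice against 4 allow is 0.0286. A single comparison at that smallest p would not pass the adjustment over 8 tests, so these tests had little room to pass. The ratio of Cyp8b1 to Cyp7a1 was 2.26 to 5.49 in the controls and 3.98 to 13.0 at 6.0 mg/kg-day. Its mean log2 value was 1.29 higher at 6.0 mg/kg-day (exact permutation p = 0.0571, adjusted 0.171) and 1.00 higher at 3.0 mg/kg-day (0.0857, adjusted 0.171). Neither ratio passed at any dose. At the lower doses the log2 differences were 0.035 and -0.40 for the first ratio, and -0.076 and 0.45 for the second, with adjusted exact permutation p-values of 0.457 or more.

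**Figure D3:**
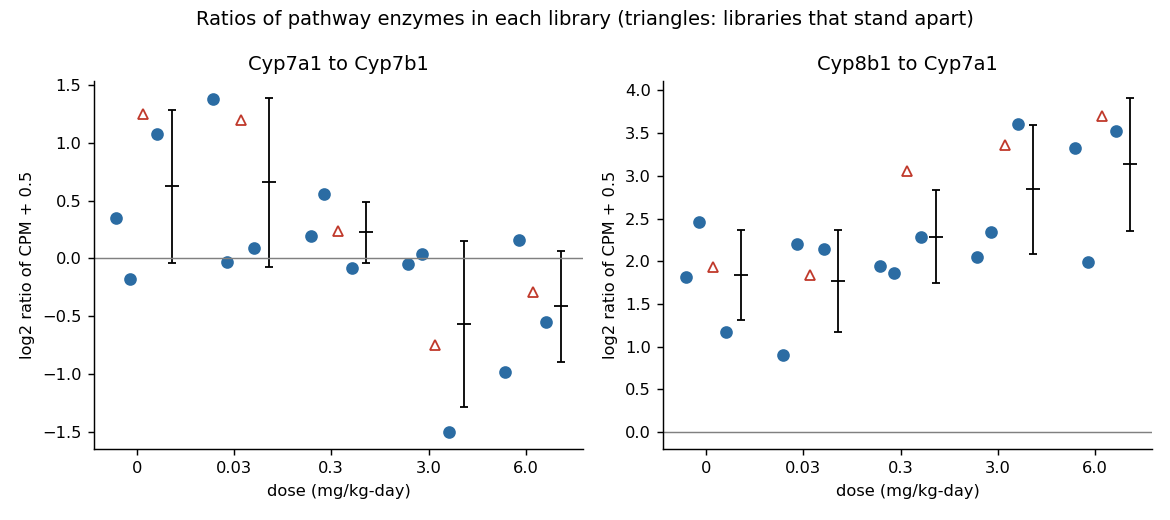
Log2 ratios of CPM + 0.5 in each library, of Cyp7a1 to Cyp7b1 and of Cyp8b1 to Cyp7a1. The x axis is the dose in mg/kg-day, circles are libraries, open triangles the libraries that stand apart, and the black bar is the mean ± SD of 4 libraries. The control and 6.0 mg/kg-day groups overlap in both panels, and the means differ by -1.04 and 1.29.

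Cyp2c70 (ENSMUSG00000060613.10, chromosome 19, 40153353 to 40187333, minus strand) fell at the highest dose. The controls had 978, 901, 2134 and 867 CPM, and the mice at 6.0 mg/kg-day had 776, 567, 560.3 and 499 CPM. All 4 treated mice lay below all 4 controls, and control library 3 was more than double any other control. The mice at 3.0 mg/kg-day had 1009, 1053, 1009 and 711 CPM and overlapped the controls. The log2 fold change was -1.02 ± 0.245 at 6.0 mg/kg-day, 2.03-fold lower, with an adjusted p of 0.00466 in edgeR. It was -0.37 ± 0.242 at 3.0 mg/kg-day (adjusted p = 0.574). Control library 3 weighs on these values: without it the change at 6.0 mg/kg-day was -0.61 and still passed, and at 3.0 mg/kg-day it was 0.046. Without the 5 libraries apart the changes were -0.55 (adjusted p = 0.0125) and 0.029. Between 6.0 and 3.0 mg/kg-day the change of -0.65 ± 0.243 did not pass (0.185), but did without the libraries apart (-0.58, 0.0309).

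Akr1d1 (ENSMUSG00000038641.12, chromosome 6, 37530173 to 37568815, plus strand) had group means of 295 CPM in the controls, then 293, 334, 362 and 417 CPM in order of dose. The controls had 237, 210.5, 412 and 322 CPM, and the mice at 6.0 mg/kg-day had 438, 386, 509 and 334 CPM. The groups overlapped through control library 3, and every other control lay below every treated mouse. The log2 fold change of 0.50 ± 0.199 at 6.0 mg/kg-day did not pass (adjusted p = 0.0803, unadjusted 0.0217). It passed once those libraries had a term (0.52, adjusted p = 0.00231), without them (0.61, 0.00351) and without control library 3 alone (0.70, 0.0151). Hsd3b7 (chromosome 7, 127800604 to 127803802, plus strand), which acts before it on the ring, had 383 ± 73.1 CPM in the controls and 324 ± 64.6 CPM at 6.0 mg/kg-day. Its change of -0.24 ± 0.148 did not pass (adjusted p = 0.270).

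Of the enzymes that conjugate bile acids, 1 of 2 was called lower at 6.0 mg/kg-day, beside 11.2% of all tested genes. Slc27a5 (ENSMUSG00000030382.15, chromosome 7, 12988346 to 12998192, minus strand), which activates bile acids with coenzyme A, had 502, 557, 528 and 563 CPM in the controls and 444, 340.4, 414 and 409 CPM at 6.0 mg/kg-day. All 4 treated mice lay below all 4 controls and below all 4 mice at 3.0 mg/kg-day, which had 537, 497, 488 and 454 CPM. Between those doses 1 of 10 members and 6.46% of tested genes did not overlap. The log2 fold change was -0.42 ± 0.113 at 6.0 mg/kg-day, 1.34-fold lower, with an adjusted p of 0.0107 in edgeR. A fit of the 2 groups alone did not call it (-0.41, adjusted p = 0.0780). Baat (chromosome 4, 49489422 to 49506557, minus strand), which adds taurine or glycine, had 266 ± 34.3 CPM in the controls and 273 ± 39.7 CPM at 6.0 mg/kg-day (0.037 ± 0.136, adjusted p = 0.874). That the changes of Slc27a5 and Baat differ from each other was not tested.

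Over all 5 groups, the joint test for a difference at any dose called 4 of 10 members, the same 4 genes, against 21.4% of tested genes. A slope on the dose rank called 4 members lower and 1 higher, against 12.7% and 13.7% of tested genes. Per step of dose rank Cyp7a1 fell by 0.47 ± 0.078 on the log2 scale (adjusted p = 8.48e-05 in edgeR). Cyp2c70 fell by 0.24 ± 0.063 (0.00738), Cyp7b1 by 0.12 ± 0.027 (0.00155) and Slc27a5 by 0.10 ± 0.031 (0.0166). Akr1d1 rose by 0.13 ± 0.042 (adjusted p = 0.0261). Slopes for Cyp8b1 (-0.086), Cyp27a1 (-0.026), Cyp39a1 (-0.034), Hsd3b7 (-0.044) and Baat (0.0088) did not pass. The slope of Cyp2c70 was not called without the libraries apart (-0.14, adjusted p = 0.0623), and that of Slc27a5 was not without library 22 (-0.082, 0.0575). That of Akr1d1 was not called on total counts without scaling factors (0.12, 0.0675), nor without library 1, 2, 21 or 23, with adjusted p-values of 0.0537 to 0.0682. The joint test called 1 member without library 22 and 2 without library 24.

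Summed over the 10 genes, the level was 3454 ± 723 CPM in the controls, 3414 ± 319 at 0.03, 3416 ± 508 at 0.3, 3059 ± 226 at 3.0 and 2617 ± 239 CPM at 6.0 mg/kg-day (SD, n = 4). Each library at 6.0 mg/kg-day was below each control, at most 2931 CPM against at least 3029 CPM. Cyp2c70 makes up the largest share of this sum. Some general hepatocyte markers fell too: of 8 listed, 4 were called lower at 6.0 mg/kg-day and 0 higher. Of all tested genes 11.2% were called lower and 11.2% higher there. The median log2 fold change of the 8 markers was -0.67, against -0.25 over the 10 members, and 6 markers had an unadjusted p under 0.05 in edgeR. Ttr (mean 2612 CPM in the controls, 2454 CPM at 6.0 mg/kg-day) and Serpina1e (57.0 and 56.2 CPM) changed little. Lower means at 6.0 mg/kg-day were found for Cyp2e1 (9278 and 4816 CPM), Ass1 (465 and 195 CPM) and Cps1 (5823 and 3789 CPM). The same held for Apob (6927 and 4211 CPM) and Apoa1 (5915 and 4516 CPM). The summed level of the 8 markers was 80510 to 111504 CPM against 130914 to 177470 CPM in the controls. Alb, which makes up most of that sum, fell by 0.78 ± 0.182 on the log2 scale (adjusted p = 0.00387 in edgeR). The part of hepatocyte markers in the falls of the bile acid genes was not tested. Markers of other liver cells were scarce by comparison, the summed T cell markers reaching 121 CPM in 1 mouse at 6.0 mg/kg-day from 2.76 to 5.74 CPM in the controls, with 2 of 4 tested markers called higher. Cholangiocyte markers summed to 25.5 to 37.1 CPM in the controls and 29.8 to 42.2 CPM at 6.0 mg/kg-day, with 0 of 5 called in edgeR, 2 at an unadjusted p under 0.05 and 2 called higher without the libraries apart. Spp1 makes up most of that sum, at means of 26.4 CPM in the controls and 30.2 CPM at 6.0 mg/kg-day. The others were scarce: Sox9 (2.70 and 2.26 CPM), Epcam (0.588 and 0.824), Krt19 (0.515 and 1.18), Krt7 (0.287 and 0.683) and Cldn4 (0.237 and 0.458). Of 6 Kupffer cell markers and 4 tested B cell markers 0 were called in edgeR, and 0 had an unadjusted p under 0.05. Of 6 sinusoidal endothelial markers 2 were called higher and 1 lower, of 6 stellate cell markers 2 lower, and of 5 erythroid markers 1 higher and 1 lower. Of 6 listed pancreatic acinar markers 2 had a row and were tested, giving 1 higher and 1 lower. Of 5 listed for intestinal epithelium 3 had a row and 1 was tested, with 0 called. Of 4 listed adipocyte markers 1 had a row, with too few counts to be tested.

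**Figure D4:**
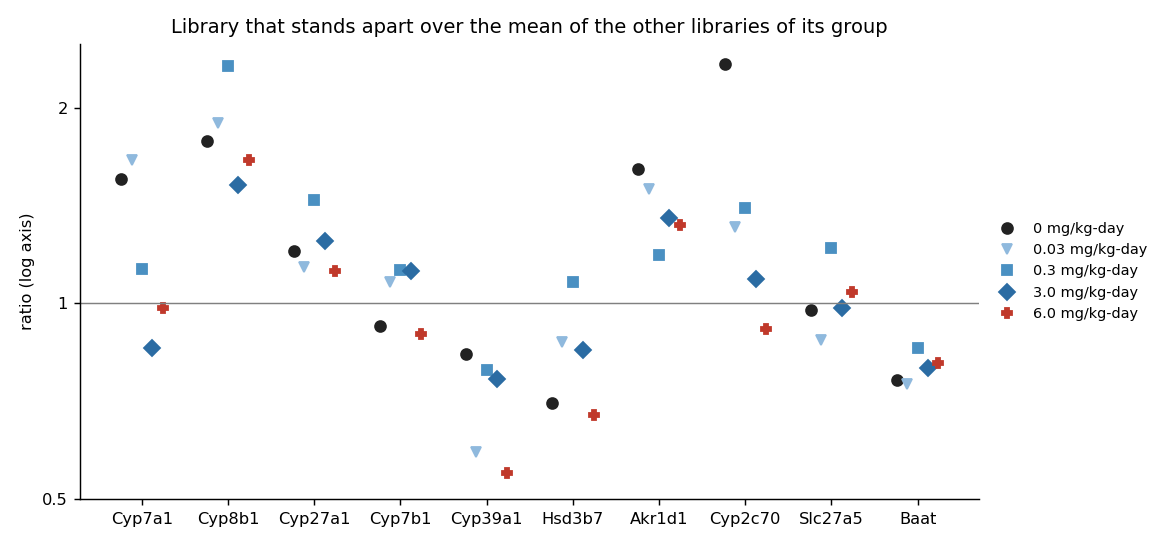
Level in the library that stands apart divided by the mean of the other 3 libraries of its group, for each gene. The y axis is a log axis, each symbol is a dose group, and the line marks a ratio of 1. Cyp8b1 lies between 1.52 and 2.32 in the 5 groups and Cyp39a1 between 0.548 and 0.834, while Cyp7b1 and Slc27a5 lie on both sides of 1.

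Members moved together only in part. Over the 20 libraries, which share the dose and the libraries apart, Pearson's r of log2 CPM was 0.53 for Cyp7a1 and Cyp7b1, 0.66 for Cyp7a1 and Cyp2c70, and 0.72 for Cyp2c70 and Slc27a5. It was 0.36 for Cyp7a1 and Cyp8b1 of the classic pathway. Cyp8b1 went with Cyp27a1 (0.72) and against Baat (-0.76), the genes that were highest and lowest in the libraries apart. Among other genes with a mean of 10 CPM or more, those most like Cyp7a1 were Sall1 (r = 0.86), Trim24 (0.86) and Plxnb1 (0.86). Those most like Cyp8b1 were Acad12 (0.90), Fam104a (0.89) and Sh3glb2 (0.89), and those most like Cyp7b1 were Avpr1a (0.86), Eloa (0.86) and Cyp2c40 (0.86). Cyp2c40, a P450 of the family of Cyp2c70, went from a mean of 728 CPM in the controls to 37.9 CPM at 6.0 mg/kg-day. These correlations are descriptions over 20 libraries.

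Side chain shortening follows the ring steps, in peroxisomes. Of 7 listed genes tested, 3 rose at 6.0 mg/kg-day and 0 fell, beside 11.2% of all tested genes called higher. Abcd3, which carries the intermediates into peroxisomes, went from 461 ± 69.2 to 764 ± 40.0 CPM (log2 0.73 ± 0.124, adjusted p = 0.000221 in edgeR). The oxidase Acox2 rose by 0.66 ± 0.143 (adjusted p = 0.00198) and the multifunctional enzyme Hsd17b4 by 0.62 ± 0.133 (0.00199). Amacr (0.23 ± 0.133), Scp2 (0.39 ± 0.203), Acot8 (0.83 ± 0.739) and Slc27a2 (-0.092 ± 0.152), the other 4 of the list, did not pass. The list's median log2 fold change was 0.62, against -0.018 for all tested genes, and without the libraries apart 5 were called higher. Of 4 tested genes for other oxysterol hydroxylases and cholesterol delivery 0 passed in either direction in edgeR, and 0 had an unadjusted p under 0.05.

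Among 16 tested regulators of bile acid synthesis, those called at 6.0 mg/kg-day were mostly lower: 8 had fallen and 1 had risen. Of all tested genes 11.2% were called lower and 11.2% higher at that dose. Their median log2 fold change was -0.65, and without the libraries apart 10 were called lower and 2 higher. Klb, the partner of Fgfr4, went from 60.1 ± 7.85 to 26.3 ± 6.02 CPM (-1.19 ± 0.156, adjusted p = 1.18e-05 in edgeR), and had fallen at 3.0 mg/kg-day (-0.62 ± 0.154, 0.0199). Fgfr4, the receptor itself, fell from 38.9 ± 7.91 to 20.2 ± 5.02 CPM (-0.95 ± 0.184, adjusted p = 0.000801). Prox1, a repressor of Cyp7a1, fell by 0.83 ± 0.142 (adjusted p = 0.000221), and Hnf4a, an activator, by 0.58 ± 0.180 (0.0248). The xenobiotic receptor Nr1i3 fell by 0.92 ± 0.144 (adjusted p = 8.83e-05) and the fatty acid receptor Ppara by 1.07 ± 0.183 (0.000225). The gene that rose was the xenobiotic receptor Nr1i2 (0.60 ± 0.167, adjusted p = 0.0130), named after its value was seen.

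Of the nuclear feedback, Nr1h4, Nr0b2 and Nr5a2 were not called at any single dose, and Nr5a2 was called by the joint test (adjusted p = 0.0481 in edgeR). Nr1h4, the bile acid receptor, had 82.7 ± 20.4 CPM in the controls and 76.7 ± 12.3 CPM at 6.0 mg/kg-day (-0.11 ± 0.230, adjusted p = 0.772). Nr0b2, the corepressor it induces, had 22.6 ± 4.31 and 22.7 ± 6.45 CPM (0.0055 ± 0.268, 0.991). Nr5a2, an activator of Cyp7a1 and Cyp8b1, had 94.2 ± 10.7 and 81.1 ± 9.52 CPM (-0.22 ± 0.114, 0.185). Its highest mean was 112 ± 11.1 CPM at 0.3 mg/kg-day (0.24 ± 0.114, adjusted p = 0.559). Nr0b2 had its lowest means at the low doses, 14.7 ± 2.36 CPM at 0.03 (-0.62 ± 0.271, unadjusted p = 0.0331 in edgeR, not passing after adjustment) and 13.7 ± 5.99 CPM at 0.3 mg/kg-day (-0.72 ± 0.271, unadjusted 0.0147, adjusted 0.396). Its joint test gave an adjusted p of 0.0515 in edgeR. At 6.0 mg/kg-day all 3 genes overlapped the controls, and a p that misses the threshold does not show that the levels were alike.

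**Figure D5:**
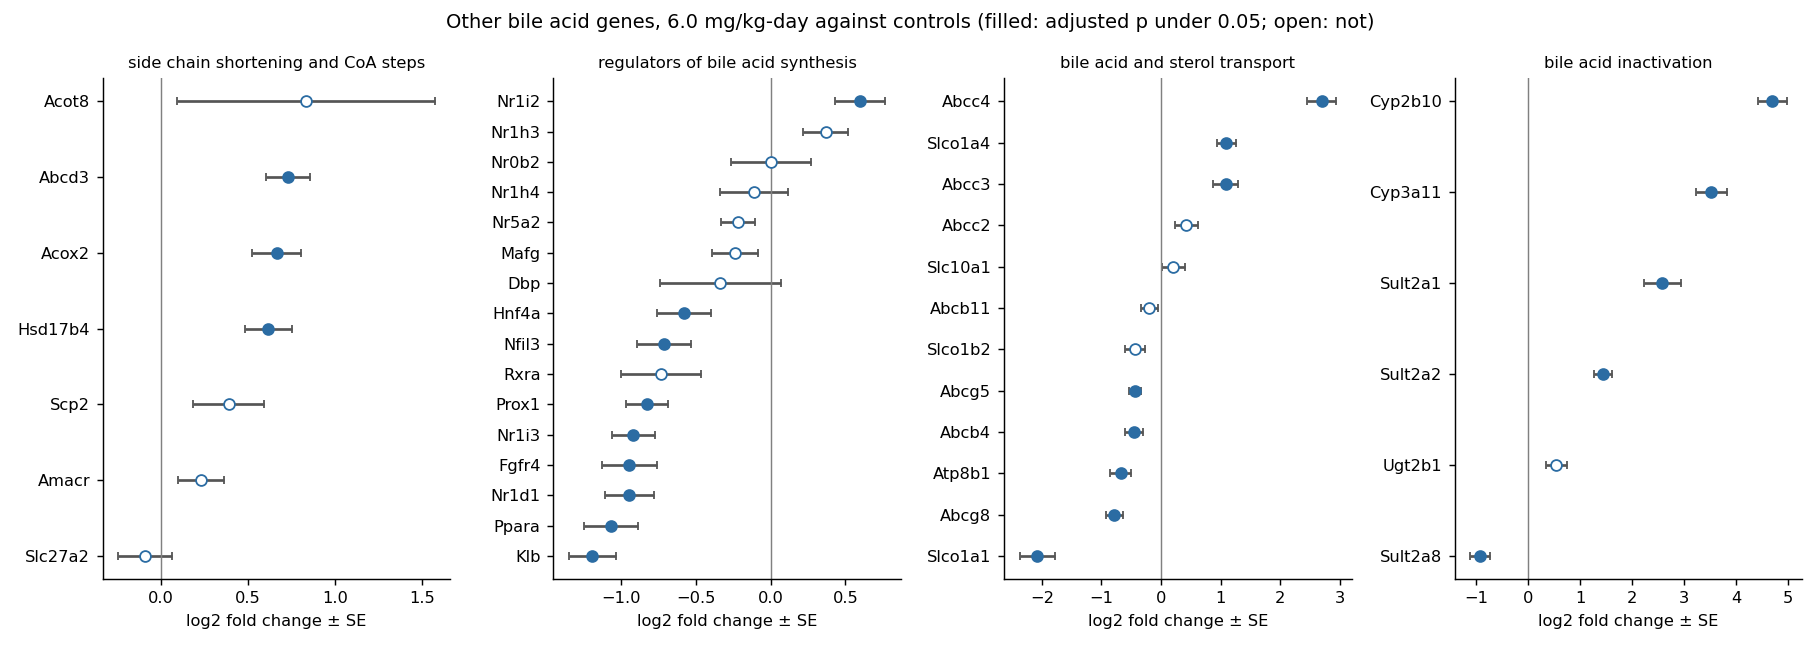
Log2 fold changes at 6.0 mg/kg-day against controls, with SE, for the tested genes of 4 other lists: side chain shortening, regulators, transport and inactivation. The x axes differ in range, and filled points passed an adjusted p of 0.05. Klb at -1.19 and Fgfr4 at -0.95 are filled, Nr1h4 at -0.11 and Nr0b2 at 0.0055 are open, and Cyp2b10 lies farthest to the right at 4.69.

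Of 12 tested genes for bile acid and sterol transport, 3 rose and 5 fell at 6.0 mg/kg-day, beside 11.2% of all tested genes in each direction. Abcc4, which exports bile acids across the sinusoidal membrane, went from 9.27 ± 2.27 to 59.95 ± 12.6 CPM (2.69 ± 0.240, adjusted p = 1.09e-07 in edgeR), and had risen at 0.3 mg/kg-day (1.24 ± 0.233, 0.0244). The uptake carrier Slco1a4 rose by 1.10 ± 0.154 (adjusted p = 2.70e-05), and the related Slco1a1 fell by 2.07 ± 0.296 (3.28e-05). Abcg8, a sterol exporter subunit, fell by 0.78 ± 0.138 (adjusted p = 0.000317). The main uptake carrier Slc10a1 (0.21 ± 0.198, adjusted p = 0.494) and the canalicular bile salt pump Abcb11 (-0.20 ± 0.138, 0.338) did not pass.

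Of 6 tested genes on the list for bile acid inactivation, 4 rose and 1 fell at 6.0 mg/kg-day, beside 11.2% of all tested genes in each direction. The 4 include Cyp2b10, which stands on the list as a xenobiotic readout. Cyp3a11, a P450 that hydroxylates bile acids and many drugs, went from 5602 ± 1875 to 64412 ± 13034 CPM (3.52 ± 0.291, adjusted p = 4.06e-08 in edgeR). Cyp2b10, a common readout of xenobiotic receptors, rose by 4.69 ± 0.277 (adjusted p = 9.89e-10), and had risen at 0.3 mg/kg-day (2.74 ± 0.254, 5.12e-06). At that dose 0 of the 10 synthesis genes were called, beside 0.138% of all tested genes called higher and 0.151% lower. The sulfotransferases Sult2a2 and Sult2a1 rose by 1.44 ± 0.171 (adjusted p = 3.54e-06) and 2.58 ± 0.354 (2.00e-05). Sult2a8, of the same family, fell by 0.92 ± 0.187 (adjusted p = 0.00123).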

How the data were processed

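The authors made and deposited 1 table of expected counts (estimated counts per gene, not normalized), with 1 column per library, which the labels' titles map to groups. The unit was read from the values, 58.05% of which are whole. The submitters' processing notes name Partek and GRCm38.p5. The aligner, the counting method and the annotation: not given in the sources used here. Values were rounded to whole numbers. Libraries held 13086755 to 21466978 counts. Rows passing edgeR's filterByExpr (15197 of 22103) entered 1 quasi-likelihood fit of all 20 libraries (edgeR 4.0.16, R 4.3.3, TMM factors, 15 residual degrees of freedom), with Benjamini-Hochberg adjustment over all tested rows and a threshold of 0.05. The SE is the absolute log2 fold change over the square root of F. The trend is a slope on dose rank (0 to 4). CPM use TMM-scaled totals. Ratios used a pseudocount of 0.5 CPM and 2-sided exact permutation tests. The fit was tested on simulated counts. Alternatives were RLE factors, total counts only, no filter, DESeq2 1.42.0, limma-voom (limma 3.58.1), a term for or removal of the libraries apart, the groups compared alone, and each library left out. Coordinates, exon lengths and transcripts are GENCODE M21, promoters RefSeq. The members and lists were chosen with earlier results of these data known. Named were all members, per list up to 4 called genes, ranked by adjusted p at the highest dose, the 3 genes most correlated with Cyp7a1, Cyp8b1 and Cyp7b1, and 9 preset regulators and transporters.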

Additional observations from a re-analysis of the deposited data

Results flagged for a closer look

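Within groups of 4 libraries, a value far from the other 3 by Dixon's test was found in 8 of 60 sets of member levels and ratios, where chance flags about 1 in 20. Of these, 5 belong to the libraries that stand apart. Cyp8b1 had 406 CPM in control library 3, next to 247 CPM, and 441 CPM in library 15 at 0.3 mg/kg-day, next to 202 CPM. Cyp2c70 had 2134 CPM in control library 3, next to 978 CPM. Akr1d1 had 391 CPM in library 11 at 0.03 mg/kg-day, next to 268 CPM, and Slc27a5 had 656 CPM in library 15 at 0.3 mg/kg-day, next to 548 CPM. The other 3 belong to other mice. Cyp7b1 had 54.8 CPM in control library 1, next to 45.5 CPM, and 39.5 CPM in library 21 at 6.0 mg/kg-day, next to 30.6 CPM. Cyp2c70 had 711 CPM in library 20 at 3.0 mg/kg-day, below 1009 CPM.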

How the results depend on the processing

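The 4 members called at 6.0 mg/kg-day were 3 to 5 in every alternative, and Cyp7a1, Cyp7b1 and Cyp2c70 passed in all of them. At 3.0 mg/kg-day the count of 1 became 2 with a term for the libraries apart, 0 without those libraries and 0 with only the groups compared. It was 0 to 1 with 1 library left out. For 6.0 against 3.0 mg/kg-day the count of 0 became 1 with the term and 1 without the libraries apart. The joint test called 1 to 4 members with 1 library left out, and the trend 4 to 5. No paired analysis was possible because the labels give the groups no shared replicate number. Without the libraries apart Cyp2c70 at 3.0 mg/kg-day was 0.029 and Cyp39a1 at 6.0 mg/kg-day 0.048, both reversed. With 1 library left out, the ranges that crossed 0 were -0.50 to 0.046 for Cyp2c70 at 3.0 mg/kg-day, -0.31 to 0.086 for Cyp39a1, -0.052 to 0.11 for Baat at 6.0 mg/kg-day and -0.0053 to 0.020 for its slope. At 0.03 mg/kg-day the log2 ratio of Cyp7a1 to Cyp7b1 ranged from -0.23 to 0.26 and that of Cyp8b1 to Cyp7a1 from -0.30 to 0.21. The cause was not tested. Neither ratio passed with another pseudocount, on total counts or with 1 library left out. With so few mice a single comparison at its smallest possible p would not pass the adjustment, so these repeats say little of stability. Without the libraries apart 3 mice against 3 allow no p below 0.1, so that setting could not pass and says nothing of stability. Counts over all genes moved too: 3405 at 6.0 mg/kg-day (5639 with the term, 5228 without the libraries apart, 1726 with only the groups compared), 701 at 3.0 (1393 with the term, 451 without library 20), 44 at 0.3 (306 with the term, 186 in DESeq2, 158 without the libraries apart, 12 to 51 with 1 library left out), 0 at 0.03 (13, 10 and 2 in that order, 565 at an unadjusted p under 0.05), 318 for 6.0 against 3.0 (1400, 658, 1476 and 0 with only the groups compared, 110 to 969 with 1 library left out) and 3255 for the joint test (6035 with the term, 5522 without the libraries apart). The list counts without the libraries apart were added after seeing the data. Cyp39a1 rested on 199 to 525 counts per library, the fewest of the 10 genes. Its SE at 6.0 mg/kg-day was 0.211, against 0.351 for Cyp7a1 and 0.317 for Cyp8b1.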
